A study of Mus musculus with 8 samples.

Results

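Semaphorins, plexins and neuropilins were described in whole aortas of fetal liver chimeras after Ang II infusion. The members were all genes whose names mark them as semaphorins of classes 3 to 7, plexins A to D or neuropilins 1 and 2, which gave 31 of the 23420 genes measured: 20 semaphorins, 9 plexins and 2 neuropilins. All 31 passed the filter of a mean of at least 10 normalized reads, as 14931 genes did. RNA came from 8 mice, 1 library each, with 4 mice per group. Recipient ApoE-/- mice were lethally irradiated at 6 weeks of age, given fetal liver cells, left to recover and then infused with Ang II at 1 µg/kg/min for 28 days. In Ntn1-/-→ApoE-/- chimeras the fetal liver cells were Ntn1-/- ApoE-/-, and in WT→ApoE-/- chimeras they were Ntn1+/+ ApoE-/-, so that ApoE was missing from donors and recipients of both groups. Cells of the recipient, among them the smooth muscle and endothelium of the wall, kept an intact Ntn1 gene in both. The question was whether these guidance genes differ between aortas with and without netrin-1 in the blood cell lineage. The RNA is that of whole tissue, where fewer cells of a type and less RNA per cell cannot be told apart.

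Semaphorins are guidance proteins named for their sema domain. Class 3 semaphorins are secreted, and most of them bind a complex of a neuropilin, which holds the ligand, with a plexin A, which carries the signal into the cell. Classes 4 to 6 cross the membrane, class 7 is anchored in it by a lipid, and these act mostly on plexins without a neuropilin. Plexins pass the signal on to the cytoskeleton, so that the cell withdraws, turns or changes its adhesion. Outside the nervous system they shape vessels and steer leukocytes, and neuropilins also serve as co-receptors of VEGF. Netrin-1 belongs to another family of guidance cues with receptors of its own.

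Total depth was 19879329 to 28202931 reads in genes per library. Ntn1 itself was at 5273 to 10225 normalized reads in Ntn1-/- chimeras and 6002 to 9870 in WT chimeras, which does not check the labels because cells of the recipient carry the gene. The tissue is labelled as aneurysm of the abdominal aorta, and the smooth muscle markers Acta2, Myh11, Tagln, Cnn1, Smtn and Lmod1 were abundant in every library, and their sum was 310700 to 808350 normalized reads. Ntn1-/- replicates B and C stood apart in neuron and skeletal muscle markers. The mean of 10 neuron markers was 1.69 and 1.28 above its mean over the 8 libraries on the log2 scale there, against -0.90 to -0.03 in the other libraries. The mean of 8 skeletal muscle markers was 3.0 and 2.99 above, against -2.48 to 1.35. The same libraries were highest in 10 Schwann cell markers, at 0.824 and 0.42 against -0.445 to 0.194. They were highest in 3 immature thymocyte markers as well, at 2.09 and 2.2 against -2.31 to 1.66. Other markers set other libraries apart. Liver markers were at 1.89, 1.94 and 2.54 in WT A, C and D and at -2.02 to 0.246 in the others. Cardiac muscle markers were at 2.15 in WT C and at -1.14 to 0.826 in the others.

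The windows before the start sites are shown first for 4 genes. Plxnb3 is shown because it had the largest difference between the groups, and Sema3d, Sema3a and Sema3e because they neighbour each other and had the same 2 highest libraries. Each is the stretch of 250 bases before a start site in RefSeq (table of GRCm38.p6), placed on mm9 by an exact match, plus strand, 5′ to 3′. Capitals mark exact matches, on either strand, to the GC box word GGGCGG, the CAAT box word CCAAT, the Ets core word GGAAGT or the E box word CAGCTG.
Plxnb3, chrX:71002192-71002441: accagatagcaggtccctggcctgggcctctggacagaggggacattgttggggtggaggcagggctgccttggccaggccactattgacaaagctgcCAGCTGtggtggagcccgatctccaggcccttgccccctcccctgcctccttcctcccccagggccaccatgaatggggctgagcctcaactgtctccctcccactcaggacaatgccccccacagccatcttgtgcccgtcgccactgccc
Sema3d, chr5:12382916-12383165: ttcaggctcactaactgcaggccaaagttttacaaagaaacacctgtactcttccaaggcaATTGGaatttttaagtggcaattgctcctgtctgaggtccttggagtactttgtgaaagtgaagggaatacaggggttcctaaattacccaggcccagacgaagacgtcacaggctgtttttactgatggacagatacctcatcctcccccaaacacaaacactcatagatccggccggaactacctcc
Sema3a, chr5:13396534-13396783: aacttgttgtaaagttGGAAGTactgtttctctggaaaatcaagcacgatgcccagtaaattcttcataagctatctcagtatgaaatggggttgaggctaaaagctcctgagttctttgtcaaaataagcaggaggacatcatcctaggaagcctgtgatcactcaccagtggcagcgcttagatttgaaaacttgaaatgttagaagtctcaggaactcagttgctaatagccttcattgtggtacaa
Sema3e, chr5:14025026-14025275: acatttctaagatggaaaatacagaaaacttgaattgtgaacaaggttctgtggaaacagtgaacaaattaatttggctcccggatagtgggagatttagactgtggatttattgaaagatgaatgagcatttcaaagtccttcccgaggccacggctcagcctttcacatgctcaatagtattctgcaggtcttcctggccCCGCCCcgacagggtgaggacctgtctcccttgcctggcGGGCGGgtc
The Plxnb3 window held the palindrome CAGCTG, which was in 13.0% of the 32851 windows of the table. Sema3d held CCAAT on the opposite strand (33.8% of windows), Sema3a held GGAAGT (19.7%) and Sema3e held GGGCGG at 2 places (32.7%). TATAAA (12.4%) and the CArG box (1.47%) were in none of the 4 shown. Sema3c had the same 2 highest libraries as Sema3d, Sema3a and Sema3e. Its window is not shown because all 250 bases lie in annotated exons. It had a GC content of 78.4% and held GGGCGG at 3 places. The Sema3a start lies inside the longer gene model of the mm9 annotation. Of the members, 26 had at least 1 start in the table and 37 starts in all, and GGGCGG was in 27 of these windows, or 73.0%. TATAAA was in none of the 37 and the CArG box in 1, a start of Sema4d.

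Levels came first, as normalized reads per kilobase of the mm9 gene model, averaged over the 8 libraries. The secreted ligand Sema3f stood highest of all members at 1097 ± 198 (SD, n = 8), above 90.5% of the genes kept. Next came the receptors Plxnb2 at 608 ± 42.5, Nrp1 at 590.4 ± 43.7 and Plxnd1 at 432 ± 82.4. The lowest was Sema5b at 3.0 ± 0.809, above 1.5% of genes, with Sema4f and Plxnb3 at 8.40 ± 2.75 and 8.64 ± 4.52. Of the 31 members, 11 lay above the median gene. Summed over genes, class 3 made up 1951 ± 368 normalized reads per kilobase, class 4 made up 488 ± 69.0, classes 5 to 7 made up 499 ± 59.1, plexins A 409 ± 26.6, plexins B to D 1172 ± 50.3 and the neuropilins 705.5 ± 69.8. Within a class the order of most genes was the same in every library. The exceptions were Sema4a over Sema4c, which held in 5 of 8 libraries, Sema6b over Sema5a in 6, Sema6c over Sema6d in 4 and Sema6d over Sema6a in 6. Whether these neighbours differ in level was not tested.

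**Figure D1:**
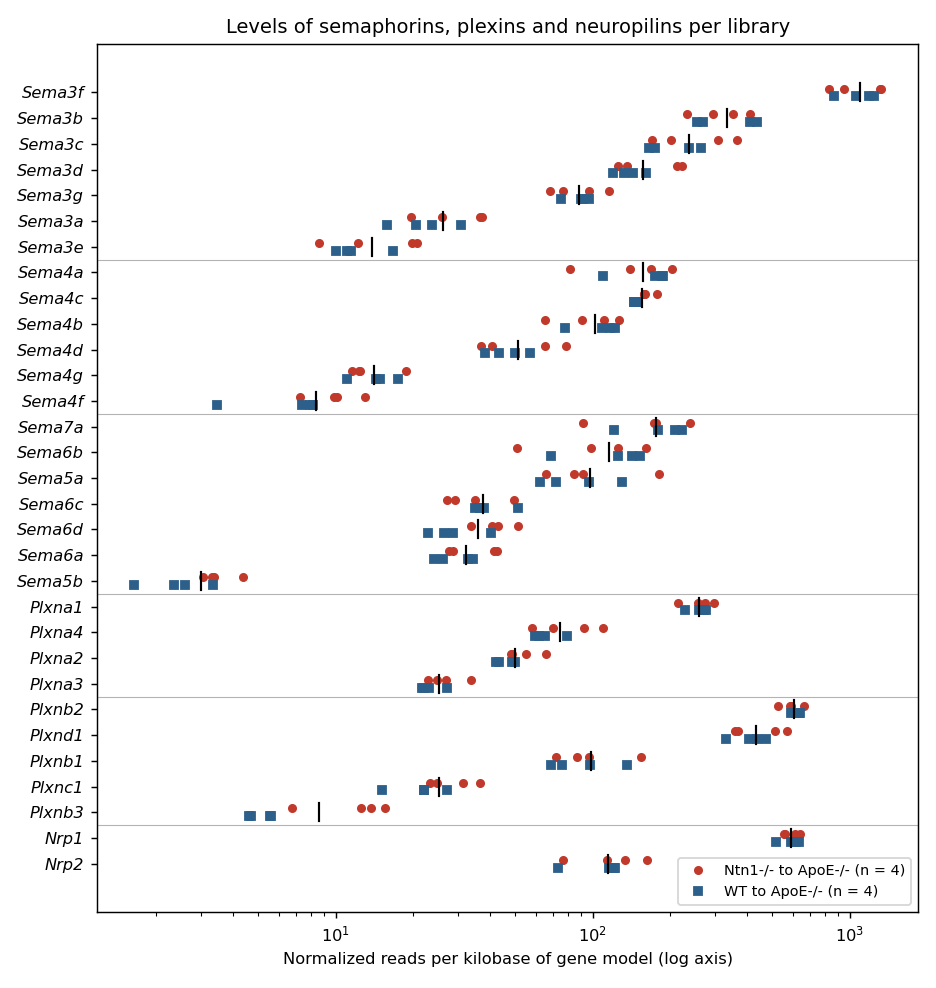
Normalized reads per kilobase of gene model (x axis, log scale) for each member (y axis), grouped as class 3, class 4, classes 5 to 7, plexins A, plexins B to D and neuropilins and ordered by level, with 1 point per library (circles, Ntn1-/- chimeras; squares, WT chimeras; n = 4 each) and a bar at the mean of the 8. Sema3f leads at 1097, and the points of both groups overlap for every member except Plxnb3 and Sema4c.

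None of the 31 members passed an adjusted p of 0.05 (limma, Benjamini-Hochberg over all genes), and neither did any of the 14931 genes (0%). At an unadjusted p under 0.05 in limma 3 members were higher in Ntn1-/- chimeras, Plxnb3, Sema6d and Sema4c, where 8.37% of all genes were, and 0 were lower, where 7.25% were. The groups did not overlap for 2 members, Plxnb3 and Sema4c, against 10.5% of all genes. edgeR on the recovered reads called 0 members and 0% of genes, with the same 3 members at an unadjusted p under 0.05. DESeq2 called 3.63% of genes and 1 member, Plxnb3. The shares of members past each threshold lay near those of all genes. The estimates of 22 members were higher and those of 9 lower, and their median log2 difference was 0.16, while 47.6% of all genes were higher and the median gene was at -0.01. Once each library was corrected for the length and GC content of genes, 17 members were higher and the members' median was 0.03.

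**Figure D2:**
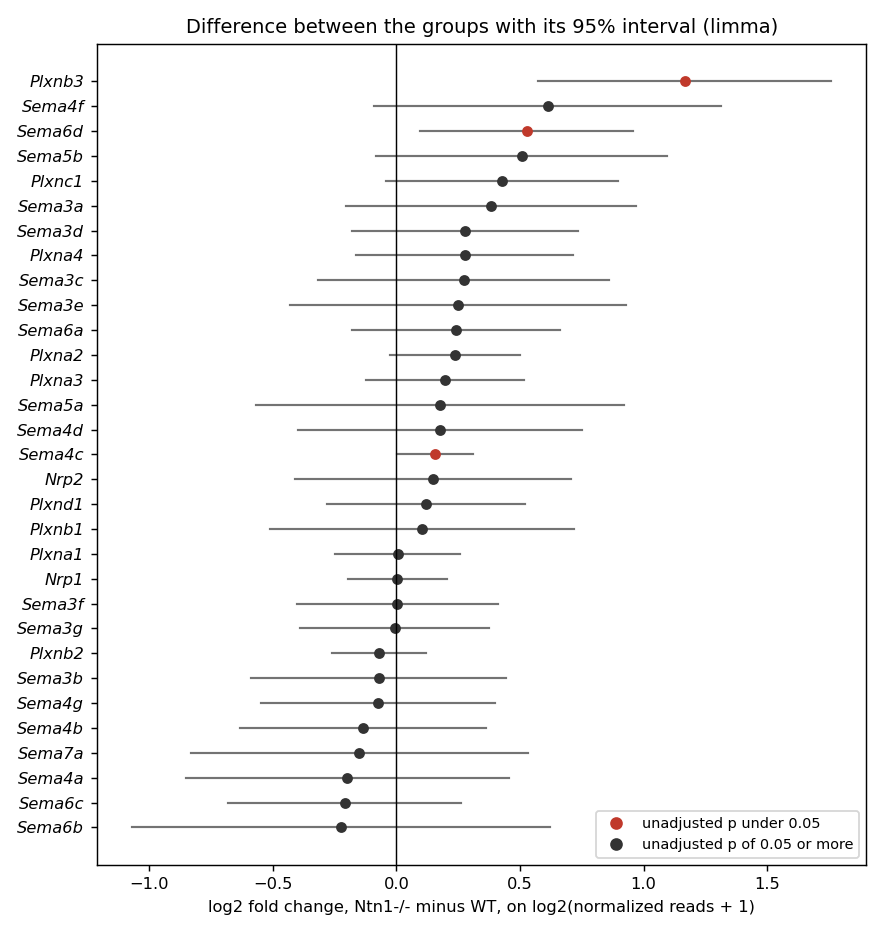
The log2 fold change of each member on log2(normalized reads + 1), Ntn1-/- minus WT (x axis), with its 95% interval from limma (n = 4 per group). The intervals of Plxnb3, Sema6d and Sema4c (red) lie above 0, and those of the other 28 members include 0.

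Plxnb3, a plexin best known from neural tissue as a receptor of Sema5a, showed the largest difference. It had 44.0, 101, 81.7 and 89.4 normalized reads in Ntn1-/- replicates A to D and 29.9, 36.1, 30.3 and 36.5 in WT replicates A to D. Every Ntn1-/- library lay above every WT library, with replicate A nearest to them. The means were 79.0 ± 24.6 (SD, n = 4) and 33.2 ± 3.6 (SD, n = 4), which on the log2 scale is a difference of 1.17 (standard error 0.26, 95% interval 0.57 to 1.76, limma unadjusted p = 0.00171, adjusted p = 0.248). DESeq2 gave an adjusted p of 0.00712 and edgeR with TMM one of 0.226. Neuron markers moved with it. Of 10 such genes, 10 had higher estimates and 8 an unadjusted p under 0.05, their summed level was 5288 to 14903 in Ntn1-/- chimeras against 4757 to 5885 in WT chimeras, and all 10 were present in every library. Uchl1, the most abundant of them, made up much of that sum at means of 3862 and 3303, with a log2 fold change of 0.18. With the mean of the 10 markers as a covariate the log2 fold change of Plxnb3 was 0.70 (limma unadjusted p = 0.0585, adjusted p = 0.311). Without Ntn1-/- replicates B and C it was 0.90 (unadjusted p = 0.0226, adjusted p = 0.343), and replicate D, where the neuron markers were at -0.03, had 89.4 reads. The gene lies on the X chromosome of mm9 from 71002429 to 71017853, plus strand, with 32 exons in the merged model and no exon shared with another gene.

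Plxnb3 is also among the scarcest of the receptors here. At 4.61 to 15.5 normalized reads per kilobase it was the lowest plexin in all 8 libraries, far below Plxnb2 at 528 to 666. Its known ligand Sema5a, a transmembrane semaphorin, had 1018, 2187, 1102 and 796 normalized reads in Ntn1-/- replicates A to D and 1566, 867, 755 and 1169 in WT replicates A to D. The groups overlapped widely, and the highest libraries were Ntn1-/- B and WT A. Its log2 fold change was 0.18 (standard error 0.33, limma adjusted p = 0.828).

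Sema6d, a transmembrane ligand of Plxna1 known from heart development, was higher at the unadjusted threshold only. It had 355, 427, 453 and 541 normalized reads in Ntn1-/- replicates A to D and 241, 424, 303 and 278 in WT replicates A to D. One WT library, replicate B, reached into the Ntn1-/- range. The log2 fold change was 0.53 (standard error 0.19, 95% interval 0.10 to 0.96, unadjusted p = 0.0220, adjusted p = 0.262 in limma). It was 0.33 with an unadjusted p = 0.147 after the offset for length and GC content, 0.56 with an unadjusted p = 0.0885 with the neuron covariate, 0.52 with an unadjusted p = 0.0816 without Ntn1-/- replicates B and C, and it no longer passed the unadjusted threshold without Ntn1-/- D, WT A or WT D (0.43, 0.41 and 0.48, with unadjusted p = 0.0598, 0.0599 and 0.0557).

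Sema4c, a transmembrane ligand of Plxnb2, differed by little but with a narrow spread. It had 727, 819, 724 and 732 normalized reads in Ntn1-/- replicates A to D and 682, 663, 667 and 681 in WT replicates A to D. The groups did not overlap, and Ntn1-/- B stood above the other 3 of its group. The log2 fold change was 0.16 (standard error 0.07, 95% interval 0.003 to 0.308, unadjusted p = 0.0470, adjusted p = 0.314 in limma). It lost that threshold when any single library was left out, with an unadjusted p from 0.0541 to 0.125. With the neuron markers as a covariate it was 0.08 with an unadjusted p = 0.415, and without Ntn1-/- replicates B and C 0.12 with an unadjusted p = 0.190.

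**Figure D3:**
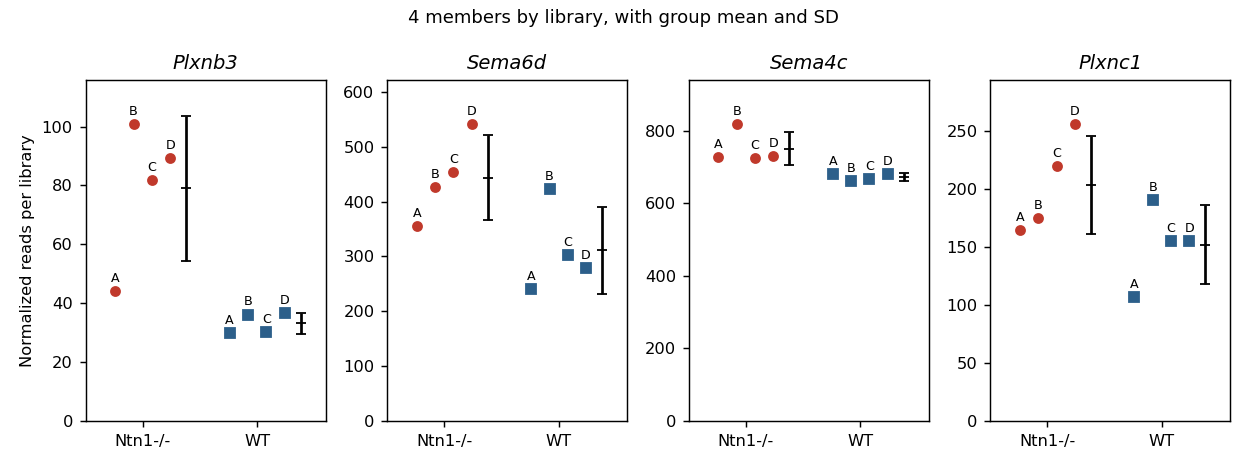
Normalized reads per library (y axis, from 0) of Plxnb3, Sema6d, Sema4c and Plxnc1 in Ntn1-/- (circles) and WT (squares) chimeras, each point lettered by replicate, with the group mean and SD (n = 4) beside the points. The groups of Plxnb3 and Sema4c do not overlap, while WT replicate B of Sema6d (424) and of Plxnc1 (191) lies within the Ntn1-/- range.

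Of the secreted class 3 ligands, the 2 most abundant per kilobase had estimates near 0. Sema3f, which acts through Nrp2, had 4579.7, 4619, 3301 and 2894 normalized reads in Ntn1-/- replicates A to D and 4317, 3682, 3035 and 4160.0 in WT replicates A to D. Its log2 fold change was 0.003 (standard error 0.18, 95% interval -0.40 to 0.41, limma adjusted p = 0.997). Sema3b, which neighbours Sema3f on chromosome 9, had 1495, 1742, 1255 and 991 against 1846, 1137, 1085 and 1735. Its log2 fold change was -0.07 (standard error 0.23). In both genes the spread within a group was several times the difference between groups. Sema3g, a ligand of Nrp2 made in arterial endothelium, had 309 to 525 in Ntn1-/- and 342 to 437 in WT chimeras, with a log2 fold change of -0.01 (standard error 0.17) that turned positive in edgeR and DESeq2.

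The other 4 class 3 genes lie within 4852921 bases of chromosome 5 in mm9, from 12383166 to 17236086, in the order Sema3d, Sema3a, Sema3e and Sema3c. They were set together after their values were seen. Sema3c, which guides cells of the cardiac outflow tract, had 2198, 2613, 1439.9 and 1219 normalized reads in Ntn1-/- replicates A to D and 1892, 1244, 1186 and 1697 in WT replicates A to D. Sema3d had 1544, 1476, 939.6 and 868 against 1123, 919, 835 and 996. Sema3a, the ligand of Nrp1 that collapses growth cones, had 375, 368, 262 and 198 against 311, 208, 159.7 and 239. Sema3e, which binds Plxnd1 without a neuropilin and repels endothelial cells, had 149.6, 157, 92.7 and 65.1 against 127, 76.0, 83.9 and 87.2. Ntn1-/- A and B were the 2 highest libraries for all 4, WT A was the third, and Ntn1-/- D was at or near the bottom with WT B and C. The log2 fold changes were 0.27, 0.28, 0.38 and 0.25 with standard errors of 0.26, 0.20, 0.26 and 0.30, and none had p under 0.05.

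The same libraries led for genes elsewhere too. Ntn1-/- A and B were the 2 highest libraries for 12.2% of all genes and for 6 members, the 4 of chromosome 5, Sema3f on chromosome 9 and Plxna4 on chromosome 6. Between the 4 genes 3 others were kept. Cacna2d1, a calcium channel subunit, had its 2 highest values in Ntn1-/- A and B (1666 and 2237), Pclo in Ntn1-/- B and C (73.2 and 48.8) and Hgf in Ntn1-/- D and WT B (48.6 and 40.8). Smooth muscle markers were 0.213 and 0.585 above their mean in Ntn1-/- A and B, 0.485 above it in WT A and at -0.816 in Ntn1-/- D on the log2 scale, and their part in these levels was not tested.

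In class 4, Sema4a, Sema4b and Sema4d were lowest in Ntn1-/- B and WT A, while Sema4c, Sema4f and Sema4g were highest in Ntn1-/- B. Sema4a, which acts on T cells and on endothelium, had 753, 440.2, 909 and 1097 normalized reads in Ntn1-/- replicates A to D and 593, 942, 1018 and 1009 in WT replicates A to D. Ntn1-/- D was its highest library. The log2 fold change was -0.20 (standard error 0.29, 95% interval -0.85 to 0.45). Sema4b had the same 2 lowest libraries, at 356 and 423 against 493 to 688 in the others. Sema4d, the ligand of Plxnb1 shed by lymphocytes and platelets, had 238 to 508 in Ntn1-/- and 246 to 369 in WT chimeras, a log2 fold change of 0.17 (standard error 0.25). Sema4f had 37.4 to 66.6 against 17.7 to 42.0, a log2 fold change of 0.61 (standard error 0.31, unadjusted p = 0.0804, adjusted p = 0.371), and Sema4g 56.5 to 91.3 against 53.8 to 84.8.

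Sema7a, the lipid-anchored ligand of Plxnc1 and of integrins, was the most abundant of classes 5 to 7 at 177 ± 50.3 (SD, n = 8) per kilobase. It had 583, 301, 570.0 and 790.3 normalized reads in Ntn1-/- replicates A to D and 397, 736, 691 and 594 in WT replicates A to D. The groups overlapped fully, with a log2 fold change of -0.15 (standard error 0.30). Sema6b, a ligand of Plxna4, had 391, 203, 500.2 and 638 against 274, 607, 568 and 501, a log2 fold change of -0.23 (standard error 0.37). For both genes Ntn1-/- B and WT A were again the lowest libraries and Ntn1-/- D the highest. Sema6a, on chromosome 18, had 243 to 370.4 against 212 to 299.6, with a log2 fold change of 0.24 (standard error 0.19). Sema5b had 21.6 to 30.9 against 11.7 to 23.6, a log2 fold change of 0.51 (standard error 0.26, unadjusted p = 0.0826, adjusted p = 0.374).

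Sema6c, a transmembrane semaphorin, was added after its values were seen. Its call at the unadjusted threshold changed with the neuron covariate and when Ntn1-/- B was left out, alone or with C. It had 160.4, 294, 207 and 173 normalized reads in Ntn1-/- replicates A to D and 303, 223, 206 and 217 in WT replicates A to D. Over all 8 libraries the log2 fold change was -0.21 (standard error 0.21, unadjusted p = 0.338, adjusted p = 0.654). Without Ntn1-/- replicates B and C it was -0.49 (limma unadjusted p = 0.0286, adjusted p = 0.344) and the groups did not overlap. Without replicate B alone it was -0.39 (limma unadjusted p = 0.0445). Without replicate C alone, also high in neuron markers, it was -0.22 (limma unadjusted p = 0.383). With the neuron covariate it was -0.69 (unadjusted p = 0.00913, adjusted p = 0.215 in limma).

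Among the plexins A, which pair with neuropilins, Plxna1 was the most abundant at 259 ± 27.1 (SD, n = 8) per kilobase. It had 2476, 1931, 2309.8 and 2688 normalized reads in Ntn1-/- replicates A to D and 2061, 2443, 2332 and 2490.1 in WT replicates A to D. The log2 fold change was 0.01 (standard error 0.11, 95% interval -0.25 to 0.26). An antisense lincRNA shares 970 bases with its exons, or 10.7% of them, and the strand setting of the counting is not given in the sources used here. Plxna4 had 1168, 1375, 879.9 and 729.6 against 998, 822, 751 and 779, a log2 fold change of 0.28 (standard error 0.19, unadjusted p = 0.189). Its 2 highest libraries were the ones that led for the chromosome 5 semaphorins.

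Plxna2, a receptor of Sema6a that was added after its values were seen, had 992, 733, 723 and 831 normalized reads in Ntn1-/- replicates A to D and 634, 751, 732 and 649 in WT replicates A to D. Its log2 fold change was 0.24 (standard error 0.12, unadjusted p = 0.0717, adjusted p = 0.357). Without Ntn1-/- replicates B and C it was 0.40 (limma unadjusted p = 0.0129, adjusted p = 0.343). With the neuron covariate it was 0.51 (limma unadjusted p = 0.00192, adjusted p = 0.213). After the offset for length and GC content it was 0.03 (limma unadjusted p = 0.814). Without Ntn1-/- A, its highest library, it was 0.14 (limma unadjusted p = 0.182). Plxna3 had 180.4 to 264 against 170.2 to 213, and its log2 fold change was 0.20 (standard error 0.14).

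The most abundant plexin, Plxnb2, a receptor of class 4 semaphorins and of angiogenin, had 4871, 4335, 3865 and 4305 normalized reads in Ntn1-/- replicates A to D and 4694, 4662, 4509 and 4329.7 in WT replicates A to D. It was among the steadiest members, and its log2 fold change was -0.07 (standard error 0.08, 95% interval -0.26 to 0.12). Plxnd1, the endothelial receptor of Sema3e, had 2564, 2655, 3687 and 4097 against 2383, 3140.2, 2915 and 3392. Its log2 fold change was 0.12 (standard error 0.18, 95% interval -0.28 to 0.52). Plxnb1, the receptor of Sema4d, had 644 to 1376 against 619 to 1217, highest in Ntn1-/- B and WT A, a log2 fold change of 0.10 (standard error 0.27).

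Plxnc1, the receptor of Sema7a on myeloid cells, was next by p among the plexins and was added after its values were seen. It had 165, 175, 220.2 and 256 normalized reads in Ntn1-/- replicates A to D and 107, 191, 155 and 156 in WT replicates A to D. The log2 fold change was 0.43 (standard error 0.21, unadjusted p = 0.0698, adjusted p = 0.354). Without WT replicate B, whose value of 191 lies inside the Ntn1-/- range, the groups did not overlap. The mean of the macrophage markers was -1.27 in Ntn1-/- B and 0.535 in WT B on the log2 scale, and their part in the Plxnc1 level was not tested.

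Nrp1, the co-receptor of Sema3a and VEGF, was the steadiest of the receptors beside Plxnb2. It had 3302, 3285, 3603 and 3768 normalized reads in Ntn1-/- replicates A to D and 3044, 3649, 3487 and 3762 in WT replicates A to D. The means were 3489.6 ± 236 (SD, n = 4) and 3486 ± 315 (SD, n = 4). The log2 fold change was 0.004 with a 95% interval of -0.20 to 0.20, and it was -0.15 after the offset for length and GC content. Nrp2, the co-receptor of Sema3f and of lymphatic VEGF, had 1083, 732, 1266 and 1552 against 699, 1098, 1165 and 1156. The groups overlapped, and its log2 fold change was 0.15 (standard error 0.25, 95% interval -0.41 to 0.71). Per kilobase Nrp1 was above Nrp2 in 8 of 8 libraries.

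Several sets of members, put together after their values were seen, had their highest or lowest values in the same libraries. Ntn1-/- B and WT A were the 2 lowest libraries for 9 members, Sema3g, Sema4a, Sema4b, Sema4d, Sema6b, Sema7a, Plxna1, Nrp1 and Nrp2, and for 12.6% of all genes. They were the 2 highest for 5 members, Sema3b, Sema5a, Sema6c, Plxna3 and Plxnb1, and for 11.3% of all genes. Ntn1-/- D and WT C were the 2 lowest for 8 members, among them Sema3a, Sema3b, Sema3c, Sema3d and Sema3f, and for 5.23% of all genes. Ntn1-/- C and D were the 2 highest for 7 members, Sema3g, Sema4d, Sema6a, Sema6d, Plxnc1, Plxnd1 and Nrp2, and for 4.55% of all genes. Macrophage markers were at -1.27 and -0.415 in Ntn1-/- B and WT A and at 0.675 in Ntn1-/- D, and smooth muscle markers at 0.585, 0.485 and -0.816 in the same libraries on the log2 scale. White adipocyte markers were at -1.24, -0.591 and 0.548 there and at 0.26 to 0.548 in WT B to D. The mean of the 6 endothelial markers stayed between -0.22 and 0.22 in all libraries, but single markers did not move alike. Emcn had 850 and 883 normalized reads in Ntn1-/- B and WT A and 1656 in Ntn1-/- D. Tek had 1065, 695 and 815 in the same libraries. The part of cell content in the levels of the members was not tested.

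Extremes were not spread evenly either. The highest library was an Ntn1-/- library for 29 of 31 members and for 55.2% of all genes, mostly Ntn1-/- D (13 members) and Ntn1-/- B (11 members). The lowest was an Ntn1-/- library for 13 members and for 59.0% of all genes. The coefficient of variation over the 8 libraries had a median of 25.3% in the members, from 6.99% in Plxnb2 to 52.3% in Plxnb3, and of 15.8% over all genes.

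**Figure D4:**
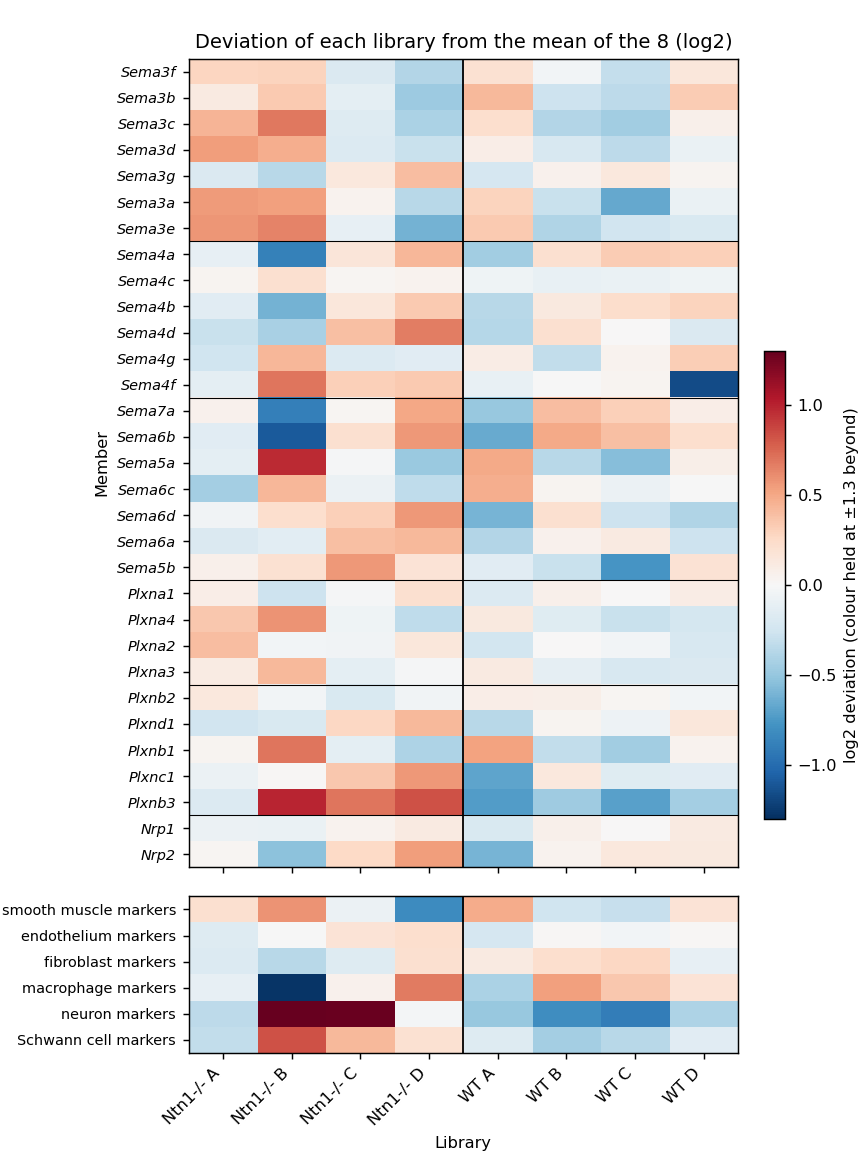
Deviation of each library (columns, 4 Ntn1-/- then 4 WT) from the mean of the 8 on log2(normalized reads + 1), for each member (rows, upper panel) and for the mean of 6 marker lists (lower panel), red above and blue below the mean. Sema3a, Sema3c, Sema3d and Sema3e are red in Ntn1-/- A and B, Sema4a, Sema6b and Sema7a are blue in Ntn1-/- B and WT A as the macrophage markers are, and the Plxnb3 row is red in Ntn1-/- B, C and D.

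Other genes that work with these ligands and receptors were counted in 4 lists. In limma 0 of them reached an adjusted p under 0.05, and those at an unadjusted p under 0.05 had adjusted p from 0.255 to 0.308.

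Co-receptors and other receptors of semaphorins had 2 of 17 genes higher and 0 lower at an unadjusted p under 0.05, where 8.37% of all genes were higher and 7.25% lower. Nrcam, an adhesion molecule that joins Nrp2 in axons, had 44.9, 129, 80.7 and 44.2 normalized reads in Ntn1-/- replicates A to D and 29.9, 32.4, 23.3 and 43.6 in WT replicates A to D, a log2 fold change of 1.08 (standard error 0.37, unadjusted p = 0.0170). L1cam, the partner of Nrp1 in axons, had 287, 670.4, 543 and 311 against 274, 258, 248 and 252, a log2 fold change of 0.72 (standard error 0.26, unadjusted p = 0.0226). The groups of neither overlapped, beside 10.5% of all genes. For Nrcam the gap was narrow, from 43.6 in WT D to 44.2 in Ntn1-/- D, where 1 read counts as 1.18 and 0.868. Both genes were highest in Ntn1-/- B and C, the libraries high in neuron markers, whose part was not tested.

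Cytoskeletal effectors had 2 of 15 genes higher and 1 lower at that threshold, beside the same 8.37% and 7.25% of all genes. Crmp1, a mediator of Sema3a in neurons, had 52.4, 147, 114 and 52.1 normalized reads in Ntn1-/- replicates A to D and 40.3, 31.5, 46.6 and 46.0 in WT replicates A to D, a log2 fold change of 1.0 (standard error 0.36, unadjusted p = 0.0210). It too was highest in Ntn1-/- B and C. Pak1, a kinase that acts on actin, had means of 268 ± 16.5 and 226 ± 8.45 and a log2 fold change of 0.24 (unadjusted p = 0.0221). Cfl1, the actin-severing protein cofilin, had 15278, 15215, 16671 and 15634 against 17101, 18641, 18190 and 19046, a log2 fold change of -0.22 (standard error 0.09, unadjusted p = 0.0440, adjusted p = 0.308 in limma and 0.0232 in DESeq2). The groups of these 3 genes did not overlap, as was so for 10.5% of all genes.

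Kinases and adaptors had 0 of 11 genes higher and 1 lower, where 7.25% of all genes were lower. The single gene is close to that share. Cdk5, the kinase that primes collapsin response mediators, had 1306, 1402, 1417 and 1354 normalized reads in Ntn1-/- replicates A to D and 1504, 1516, 1542 and 1684 in WT replicates A to D, with a log2 fold change of -0.19 (standard error 0.06, unadjusted p = 0.0177). The groups did not overlap, beside 10.5% of all genes. Of the 5 VEGF family ligands that share the neuropilins, 1 had a higher and 4 a lower estimate, with a median of -0.06, and none had p under 0.05.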

How the data were processed

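RNA of 8 aortas was sequenced by the authors as single-end reads, aligned to mm9 with TopHat2 2.0.9, counted per gene with featureCounts and compared with DESeq2. In the deposited signal each count was scaled by the size factor of its library from DESeq2. Whole reads were recovered for 100% of 187360 values (tolerance 0.001). Deposited fold changes and p-values of the authors' own comparison and the pathway tables were not used. Genes with a mean of at least 10 were tested on log2(value + 1), a scale that understates changes of low genes. The test was limma 3.58.1 with eBayes, a mean-variance trend and Benjamini-Hochberg adjustment. edgeR 4.0.16 and DESeq2 1.42.0 were run on recovered reads, all in R 4.3.3. The fits were tested on simulated data. Lengths, GC content (94.7% of kept genes) and positions came from GENCODE vM1, which may not be the annotation the authors used. Each library is 1 mouse. The letters A to D come from the sample names. Per-library values are given for members whose groups do not overlap, with an unadjusted p under 0.05, or among the 2 most abundant of their class, and for up to 3 genes a list with p under 0.05. Sema3a, Sema3c, Sema3d, Sema3e, Sema5a, Sema6c, Plxna2 and Plxnc1 were added after their values were seen. Members and lists were chosen with earlier results of these data known. Other pseudocounts, no filter, a replicate block, a neuron covariate, a length and GC offset, another threshold and left-out libraries were tried. One list of pathway genes is not reported here.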

Additional observations from a re-analysis of the deposited data

Results flagged for a closer look

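Over the 62 groups of 4 values (31 members in 2 groups), 4 had a library far from the other 3 of its group, where chance alone flags about 1 in 20 groups, or 3.1. Sema4c had 818.7 normalized reads in Ntn1-/- replicate B and 724 to 732 in the other 3. Sema4g had 91.3 in Ntn1-/- replicate B and 56.5 to 60.7 in the other 3. Sema4f had 17.7 in WT replicate D and 37.996 to 42.0 in the other 3. Nrp2 had 698.9 in replicate A of WT chimeras, where the others had 1098 to 1165.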

How the results depend on the processing

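Sema5b, Sema4f, Sema4g and Plxnb3 had at most 101 normalized reads a library, and each group had 4 mice. Of 31 members, 14 kept their direction in all 18 alternatives, Plxnb3, Sema6d and Sema4c among them, and 17 did not. No member passed an adjusted p of 0.05 in any limma or edgeR fit, nor 0.1. DESeq2 called 1, Plxnb3, and 542 genes where limma called 0. Members higher at an unadjusted p under 0.05 numbered 3, 1 with the neuron covariate (Plxna2, none of those 3) and 1 to 3 when a library was left out (1 without WT A, Plxnb3). They numbered 2 without a filter, after the length and GC offset and without Ntn1-/- B and C together. The names changed too. Without Ntn1-/- D they were Plxnb3, Plxna4 and Sema3a. Without Ntn1-/- A or WT B they were Plxnb3, Sema6d and Plxnc1. Without Ntn1-/- B or C they were Plxnb3, Sema6d and Plxna2. Members lower numbered 0, 1 with the neuron covariate, 1 without Ntn1-/- B and C together and 0 to 1 when a library was left out (1 without Ntn1-/- B), in each case Sema6c. Members whose groups do not overlap numbered 2, 4 without Ntn1-/- B and C together and 2 to 4 when a library was left out (4 without Ntn1-/- A or WT B).

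With the replicate letter as a replicate block 2 members were higher (Plxnb3 and Sema6d) and 0 lower. Deviations of libraries with the same letter correlated at -0.0082, -0.304, 0.151 and -0.256, so that the letters were not taken to pair the mice. Ntn1-/- A, B and D correlated best with a WT library of another letter, at 0.0643 with C, 0.636 with A and 0.51 with C. Ntn1-/- C correlated equally with WT C and WT D, at 0.151.

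With the neuron covariate the log2 fold change changed sign to -0.129 in Sema3f, -0.0108 in Sema3c, 0.178 in Sema3g, 0.267 in Sema4a, 0.155 in Sema4b, 0.479 in Sema7a, 0.388 in Sema6b, -0.558 in Sema5a, 0.0459 in Plxnb2 and -0.374 in Plxnb1. Without Ntn1-/- B and C together it changed sign to -0.048 in Sema3f, 0.101 in Sema3g, 0.0629 in Sema4a, 0.0295 in Sema4b, 0.205 in Sema7a, 0.0984 in Sema6b, -0.216 in Sema5a, 0.0105 in Plxnb2 and -0.13 in Plxnb1. After the offset for length and GC content it did so to -0.0547 in Sema5a, -0.145 in Nrp1, -0.00365 in Nrp2, -0.0984 in Plxna1 and -4e-05 in Plxnb1. Sema3g was 0.0214 in edgeR with TMM, 0.0178 in edgeR with DESeq2 size factors and 0.0199 in DESeq2. When a library was left out, the range was -0.0597 to 0.042 for Nrp1, -0.0281 to 0.351 for Nrp2, -0.0624 to 0.0965 for Plxna1, -0.113 to 0.294 for Plxnb1, -0.00255 to 0.223 for Plxnd1, -0.198 to 0.0736 for Sema3b, -0.101 to 0.13 for Sema3f, -0.14 to 0.114 for Sema3g, -0.382 to 0.0628 for Sema4a, -0.279 to 0.0462 for Sema4b, -0.0193 to 0.345 for Sema4d, -0.231 to 0.0204 for Sema4g, -0.119 to 0.37 for Sema5a, -0.481 to 0.0991 for Sema6b and -0.342 to 0.121 for Sema7a. The cause was not tested.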
